A study of Mus musculus with 6 samples.

Results

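The AP-1 and early growth response genes were examined in colon tumours of Trim21 knockout and wild-type mice. The set was chosen by gene symbol and holds 10 genes, namely Fos, Fosb, Fosl1, Fosl2, Jun, Junb, Jund, Atf3, Egr1 and Egr2, out of 26214 features in the count tables. All 10 were found in every library, and all 10 passed the filter on low counts that left 16281 genes for testing. RNA sequencing of ribosome-depleted total RNA was done on 6 libraries of colon tumour tissue. In the first group, 3 samples came from mice labelled Trim21 -/-, a knockout of the gene for the ubiquitin ligase and antibody receptor Trim21. The other 3 samples came from Trim21 +/+ mice. Both groups had received AOM and DSS, which usually stand for the mutagen azoxymethane and for dextran sulfate sodium, which damages the gut lining, and no untreated tissue was part of the comparison. The labels call the samples biological replicates without saying whether each was 1 tumour or 1 mouse, and they give no age, strain or sex, so the p-values rest on the spread among the samples, which may be partly technical. Bulk tumour RNA was measured, so fewer cells of a type and less RNA per cell cannot be told apart.

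AP-1 is a dimer of basic leucine zipper proteins. A Jun protein can pair with another Jun, with a Fos protein or with a factor of the ATF group, and Fos proteins bind DNA only with a partner. Many of these genes, with the zinc finger genes Egr1 and Egr2, are immediate early genes, which are transcribed within minutes of growth factor, cytokine or stress signals through existing factors such as SRF and CREB. In the intestine AP-1 acts downstream of Ras and MAP kinase signalling, and Jun is known to be needed for adenoma growth in mice.

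Total counts were between 17937821 and 19987295 in the knockout libraries and between 27085599 and 29742757 in the wild-type libraries. All 12 colon epithelium markers, such as Epcam, Cdx2 and Vil1, were detected, with summed levels between 7567 and 8997 CPM over the 6 libraries. CPM is a gene's read count relative to the scaled total of its library, so it compares 1 gene between libraries. Trim21 was measured at 12.1, 18.9 and 12.8 CPM in knockout replicates 1 to 3 and at 29.7, 20.3 and 19.5 CPM in wild-type replicates 1 to 3. Its groups did not overlap, but it did not pass the test (edgeR adjusted p = 0.418), and a count per gene cannot tell which exons of Trim21 the knockout reads cover. Wild-type replicate 1 stood apart from the other 5 libraries on the first principal component of all tested genes, which held 36.0% of the variance. It was kept, and values without it are given where they bear on a result.

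Of the 10 genes, 8 have a promoter sequence in the RefSeq table of GRCm38.p6, the assembly that mm10 denotes. Shown are the 250 bases before the start of 3 of them that stood for different patterns across the libraries, given 5′ to 3′ on the gene's strand. Fos and Jun ordered the libraries in nearly opposite ways, and Egr2 varied with Fosl2 and Atf3. Egr2 has several starts in the table, and the 1 shown lies inside the span of the gene given later, at a start after its first base. Capitals mark matches to the motifs named after the sequences.
Fos, chr12:85473640-85473889, plus strand: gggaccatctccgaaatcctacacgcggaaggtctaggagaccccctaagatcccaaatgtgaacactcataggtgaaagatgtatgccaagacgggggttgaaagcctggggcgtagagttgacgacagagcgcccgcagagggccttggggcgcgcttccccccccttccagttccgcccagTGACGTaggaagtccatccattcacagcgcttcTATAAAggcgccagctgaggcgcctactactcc
Jun, chr4:95052223-95052472, minus strand: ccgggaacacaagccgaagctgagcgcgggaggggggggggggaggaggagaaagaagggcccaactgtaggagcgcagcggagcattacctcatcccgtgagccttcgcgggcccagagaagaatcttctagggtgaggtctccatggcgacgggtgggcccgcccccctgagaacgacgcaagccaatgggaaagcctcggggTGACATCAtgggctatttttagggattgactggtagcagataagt
Egr2, chr10:67537619-67537868, plus strand: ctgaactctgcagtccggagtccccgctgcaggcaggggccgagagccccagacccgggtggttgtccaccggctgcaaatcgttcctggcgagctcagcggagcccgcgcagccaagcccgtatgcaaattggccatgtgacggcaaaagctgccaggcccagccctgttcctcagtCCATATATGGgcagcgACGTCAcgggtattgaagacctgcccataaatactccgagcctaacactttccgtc

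The motifs were searched on both strands in the 250 bases before the start. They were the CArG box bound by SRF, the AP-1 site TGACTCA, the CRE TGACGTCA, the CRE core TGACGT contained in it, the variants TGACATCA and TGACGCAA, the EGR sites GCGTGGGCG and GCGGGGGCG, the ETS site ACTTCCGG and TATAAA. The Fos window holds TGACGT, whose first base lies 66 bases before the start, and TATAAA at 33 bases before it. The Jun window holds TGACATCA at 45 bases before the start. The Egr2 window shown holds a CArG box at 72 bases before the start and TGACGT on the minus strand at 56 bases before it. Among all 32851 promoter windows of this length, 1.47% hold a CArG box, 6.47% hold TGACGT, 2.93% hold TGACATCA and 12.4% hold TATAAA. Of the other members, Fosb holds TGACGCAA at 60 bases before the start, a match found in 0.438% of windows, and GCGGGGGCG at 50. The motif GCGGGGGCG is found in 2.57% of windows. No searched motif matched in the window of Junb. The windows of Fosl2, Jund and Atf3 belong to starts away from the first base of the annotated gene and are not described. The Egr2 window shown also belongs to such a start. The Egr2 window near the first base of that gene, chr10:67535249-67535498, holds none of the searched motifs. Each other Egr2 window holds a CArG box. These matches describe letters and do not show binding.

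None of the 10 genes passed the test between knockout and wild-type tumours, and the summed level of the 10 overlapped between the groups. The sum was 877, 875 and 896 CPM in knockout replicates 1 to 3 and 916, 856 and 815 CPM in wild-type replicates 1 to 3. The test was edgeR's quasi-likelihood test with Benjamini-Hochberg adjustment over 16281 genes and with calls made at an adjusted p under 0.05. It called 0% of all tested genes. At an unadjusted p under 0.05 it found 2 of the 10, Fos and Egr1, both higher in the knockout, where 10.7% of all tested genes were found in either direction, 6.63% higher and 4.12% lower. The same 2 were the members whose CPM did not overlap between the groups, against 17.9% of all tested genes in either direction and 9.43% higher in the knockout. For a set of 10 genes, 2 is close to what these shares give. DESeq2, which called 2.07% of all genes, 1.51% as higher and 0.559% as lower, called 0 of the 10, and limma-voom called 0% of all genes.

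**Figure D1:**
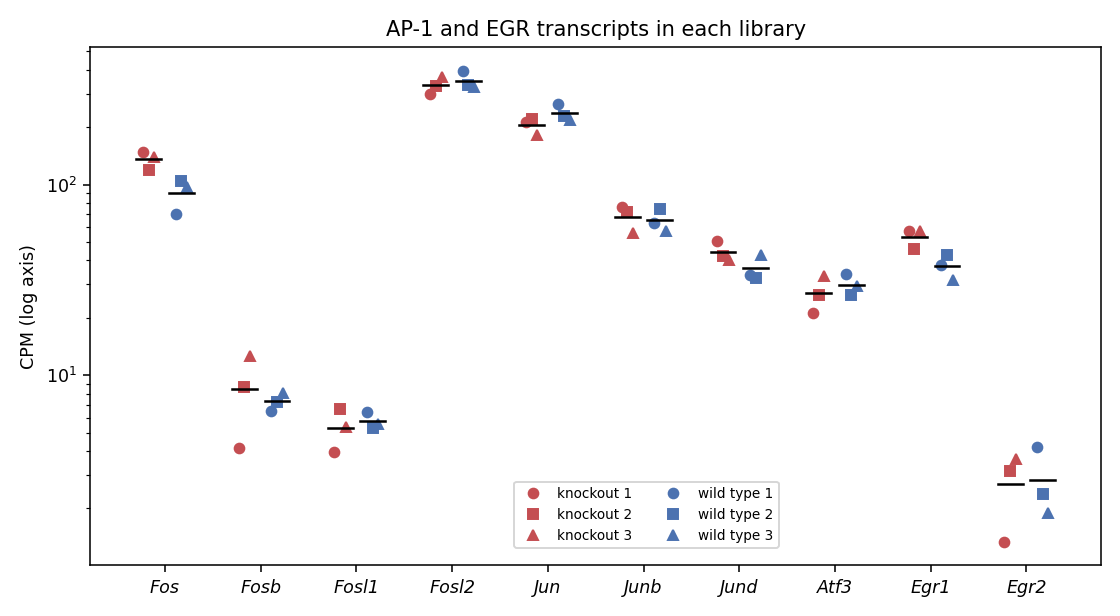
CPM of the 10 genes on a log axis, 1 symbol per library (red, knockout; blue, wild type; circle, square and triangle, replicates 1, 2 and 3), with black bars for the group means. The 3 knockout libraries lie above the 3 wild-type libraries for Fos and Egr1, and the groups overlap for the other 8 genes.

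Fos encodes the founding member of the Fos proteins, a short-lived partner of Jun. The gene is found at 85473890 to 85477273 of chromosome 12 (mm10, plus strand), and like the other 9 it is protein-coding. It measured 149, 119.9 and 139 CPM in knockout replicates 1 to 3 and 70.3, 104 and 96.9 CPM in wild-type replicates 1 to 3. Every knockout library lay above every wild-type library, with wild-type replicate 1 the lowest of the 6. The means were 136 ± 14.7 CPM and 90.5 ± 17.9 CPM (SD, n = 3 each). On the log2 scale the knockout was 0.59 above the wild type (SE 0.16), a 1.5-fold difference that did not pass (edgeR adjusted p = 0.345). Its 95% interval, which is not adjusted for the number of genes, ran from 0.21 to 0.97. Leaving out single libraries kept the sign, with values from 0.43, without wild-type replicate 1, to 0.70.

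Egr1, a zinc finger activator induced by the same signals as Fos, lies on chromosome 18. Its level was 57.1, 46.2 and 56.8 CPM in knockout replicates 1 to 3 and 38.0, 42.9 and 31.4 CPM in wild-type replicates 1 to 3. The groups did not overlap, although knockout replicate 2 and wild-type replicate 2 were close. The log2 fold change was 0.51 (SE 0.15) with a 95% interval from 0.16 to 0.86 (edgeR adjusted p = 0.357), and 0.52 without wild-type replicate 1. Its paralog Egr2, which lies on chromosome 10 from 67535475 to 67542188 on the plus strand, was low, with 27, 57 and 70 reads in the knockout and 126, 70 and 51 in the wild type. This corresponds to 1.34, 3.13 and 3.62 CPM against 4.22, 2.37 and 1.89 CPM. Knockout replicate 1 was the lowest and wild-type replicate 1 the highest, and the groups overlapped throughout. The Egr2 log2 fold change was −0.07 with an interval from −1.18 to 1.04, so differences of about 2-fold either way lie within it. The sign of Egr2 turned when knockout replicate 1 (0.26) or wild-type replicate 1 (0.34) was left out.

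**Figure D2:**
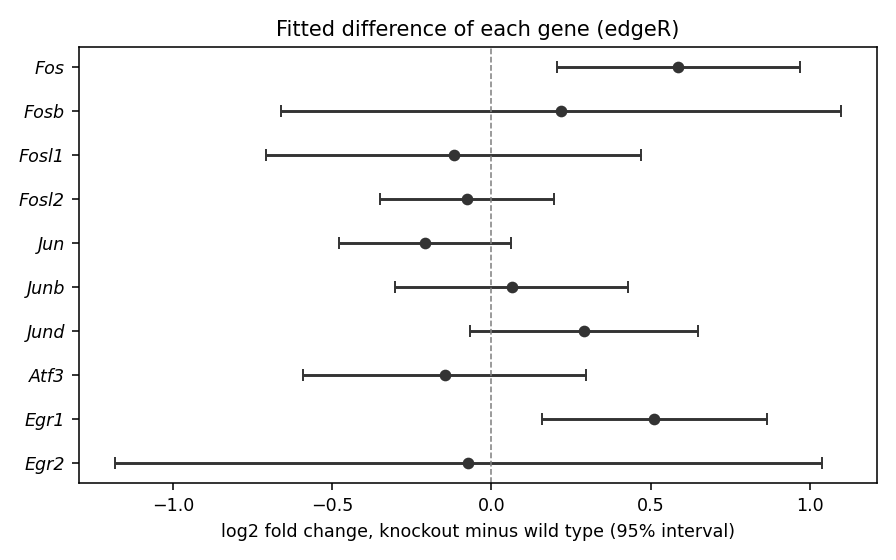
Log2 fold change of each gene, knockout minus wild type, from the edgeR fit (points) with 95% intervals (bars) that are not adjusted for the number of genes. The intervals of Fos (0.21 to 0.97) and Egr1 (0.16 to 0.86) lie above 0, and the other 8 include 0.

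Fosb, Fosl1 and Fosl2 are the other Fos proteins. Fosl2, which encodes Fra-2, lies on chromosome 5 from 32135801 to 32157842 on the plus strand. Its CPM were among the most precise, with knockout replicates at 300.3, 329.6 and 368 and wild-type replicates at 395, 332 and 325. The groups overlapped, and knockout replicate 1 was lowest. With a log2 fold change of −0.08 and an interval from −0.35 to 0.20, Fosl2 was among the most closely bounded members (edgeR adjusted p = 0.827). Its sign turned without wild-type replicate 1, to 0.02.

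Fosl1, which encodes Fra-1, is a Fos protein often linked to invasive carcinoma, and it was scarce here. The gene lies on chromosome 19 from 5447547 to 5455946 on the plus strand. Its values were 3.96, 6.64 and 5.32 CPM in the knockout replicates and 6.43, 5.28 and 5.56 CPM in the wild-type replicates. Knockout replicate 1 was the lowest and knockout replicate 2 the highest, so the knockout range enclosed the wild-type range. The log2 fold change was −0.12 (interval −0.71 to 0.47, edgeR adjusted p = 0.879), and it was 0.06 without knockout replicate 1. Exons of Fosl1 overlap those of Ccdc85b on the opposite strand, and the counting of strand is not given in the sources used here, so some reads may belong to either gene.

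Fosb lies on chromosome 7 from 19302696 to 19310051 on the minus strand and encodes an inducible Fos protein with a shorter splice form. Its CPM were 4.16, 8.72 and 12.6 for the knockout against 6.5, 7.27 and 8.07 for the wild type. The knockout tumours spread 3.02-fold, from the lowest to the highest value of all 6 libraries, while the wild-type tumours lay close together. The mean was 8.48 ± 4.20 CPM against 7.28 ± 0.787 CPM (SD, n = 3 each). The log2 fold change was 0.22 (interval −0.66 to 1.10, edgeR adjusted p = 0.851), and −0.18 without knockout replicate 3.

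Jun, the central DNA-binding partner of AP-1, lies on chromosome 4 from 95049034 to 95052222 on the minus strand. It measured 214, 219.6 and 181 CPM in knockout replicates 1 to 3 and 265, 228 and 217 CPM in wild-type replicates 1 to 3. Knockout replicate 3 was the lowest and wild-type replicate 1 the highest, and the groups overlapped only through knockout replicate 2 and wild-type replicate 3. The log2 fold change was −0.21 (SE 0.11, interval −0.48 to 0.06, edgeR adjusted p = 0.537). The sign was negative in all 6 fits that left out 1 library, from −0.27 to −0.12. An antisense gene, Junos, overlaps an exon of Jun and is not among the counted features.

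Junb and Jund both lie on chromosome 8 and encode Jun proteins that bind DNA like Jun but often restrain growth. Junb, from 84974484 to 84978718 on the minus strand, reached 76.2, 72 and 55.4 CPM for the knockout against 62.8, 74.6 and 57.4 CPM for the wild type. The groups overlapped almost fully, with a log2 fold change of 0.06 (interval −0.30 to 0.43, edgeR adjusted p = 0.898). Leaving out either knockout replicate 1 or wild-type replicate 3 gave −0.02. Exons of Junb overlap those of Prdx2 on the opposite strand. Jund, from 70698949 to 70700616 on the plus strand, is the Jun gene least dependent on acute signals. Its values were 50.7, 42.5 and 40.0 CPM in the knockout replicates and 33.5, 32.5 and 42.9 CPM in the wild-type replicates. Wild-type replicate 3 lay inside the knockout range, and the other wild-type libraries lay below it. The Jund log2 fold change was 0.29 (SE 0.15, interval −0.07 to 0.65, edgeR adjusted p = 0.526). It was 0.19 with knockout replicate 1 left out and 0.43 with wild-type replicate 3 left out.

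Atf3, a stress-induced member of the ATF group that can pair with Jun proteins, lies on chromosome 1 from 191170296 to 191218039 on the minus strand. Its CPM were 21.2, 26.4 and 33.3 for the knockout against 34.0, 26.3 and 29.2 for the wild type. The groups overlapped, with knockout replicate 1 lowest. The log2 fold change was −0.15 (interval −0.59 to 0.30, edgeR adjusted p = 0.786) and 0.01 without knockout replicate 1.

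Sampling of reads accounts for little of the spread in most members. The coefficient of variation within groups was 14.5% for Fos, where counting error alone gives 1.98%, and 38.3% for Fosb, where it gives 7.82%. For Egr2 it was 44.1% against 13.6%. For Fosl1, with 80 to 192 reads, it was 18.8% against 9.01%, the closest ratio of these 4. These figures cover counting error only.

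Levels of different genes were compared per kb of exon, with exon lengths from the GENCODE M21 annotation. Over the 6 libraries Jun was first, at 69.2 ± 8.48 CPM per kb, and Fos was second at 48.2 ± 12.3 (SD, n = 6). Fosl2 followed at 35.3 ± 3.50, Junb at 28.9 ± 3.93 and Jund at 24.2 ± 4.03. The ranges of neighbours in this order overlapped from Jun down to Jund, so neighbours are not separated by the libraries. Genes further apart can be. Jun, at 56.8 or more, lay above Fosl2 (at most 40.8), Junb (at most 33.1) and Jund (at most 30.4) in every library. Fosl2, at 31.0 or more, also lay above Jund. Atf3, at 13.2 ± 2.24, lay below Jund in every library, and its range overlapped that of Egr1 at 10.1 ± 2.29. Fosl1 at 2.72 ± 0.472 lay below Egr1 in every library, followed by Fosb at 1.26 ± 0.446 and Egr2 at 0.812 ± 0.321, whose ranges overlapped. These tumours thus carried far more Fos and Fosl2 than Fosl1 and Fosb transcript per kb, whatever the genotype. The place of Fosl2 depends on the length used. It has 9680 bp of exon but 978 bp of coding sequence, against 3189 and 1002 bp for Jun. Its CPM was above that of Jun in every library, so by coding length Fosl2 would lie above Jun.

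Within the Fos family the share of Fos lay higher in every knockout tumour than in every wild-type tumour. As a share of the family's CPM per kb, Fos made up 65.3%, 56.8% and 58.2% for knockout replicates 1 to 3 against 39.9%, 53.8% and 52.3% for wild-type replicates 1 to 3. The groups did not overlap, with wild-type replicate 1 the lowest. The mean difference was 11.4 percentage points, and the exact two-sided permutation p was 0.10, the smallest that 3 against 3 samples can give. Without wild-type replicate 1 the difference was 7.04 points. The share of Fosl2 was lower by the same token, at 32.0%, 38.0% and 37.3% in the knockout and 54.5%, 41.6% and 42.6% in the wild type. Fosl1 held 2.01% to 4.23% and Fosb 0.688% to 1.97% in all libraries. With coding length in place of exon length, the difference for Fos was 7.56 points, and Fosl2 rather than Fos was the larger part of the family in every library, from 68.8% to 84.2%. The order of Fos and Fosl2 therefore depends on the length used. Another length rescales each gene equally in every library, so it is no separate check of the difference between the groups.

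In the Jun family, the share of Jun was 51.3%, 54.8% and 54.1% in the knockout replicates and 63.7%, 57.9% and 57.3% in the wild-type replicates. Again the groups did not overlap, with an exact two-sided permutation p of 0.10. Jund took 23.3%, 20.3% and 22.9% in the knockout against 15.4%, 15.8% and 21.7% in the wild type, where wild-type replicate 3 lay within the knockout range. Junb held between 20.9% and 26.3% in all libraries, with overlap. The ratio of Fos to Jun within a library joins both shifts. On the log2 CPM scale it was −0.52, −0.87 and −0.38 for the knockout against −1.91, −1.13 and −1.16 for the wild type. The mean difference was 0.81, every knockout library lay above every wild-type library, and the exact permutation p was 0.10, or 0.40 after adjustment over the 8 ratios computed. Among those ratios, Fos over Fosl2 was the other one without overlap, with a difference of 0.68. Without wild-type replicate 1, an alternative chosen after seeing the data, the differences were 0.55 for Fos over Jun and 0.42 for Fos over Fosl2. Egr1 over Fos was nearly constant in the knockout, between −1.38 and −1.29, and ran from −1.63 to −0.89 in the wild type.

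**Figure D3:**
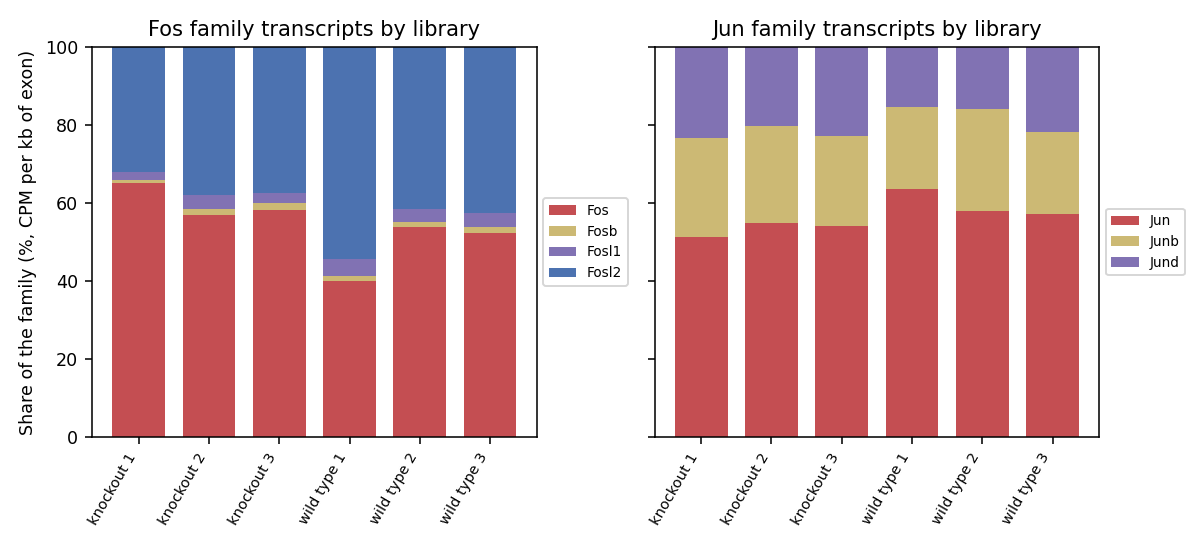
Share of each gene in the summed CPM per kb of exon of the Fos family (left) and the Jun family (right), 1 bar per library. Fos takes 56.8% to 65.3% in the 3 knockout libraries and 39.9% to 53.8% in the 3 wild-type libraries, and Jun takes 51.3% to 54.8% against 57.3% to 63.7%.

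The 10 genes did not vary as 1 programme across the libraries. Pearson correlations of log2 CPM over the 6 libraries were computed for all 45 pairs, and 22 were positive, with a median of −0.04. No pair passed after Benjamini-Hochberg adjustment over the 45 pairs (smallest adjusted exact permutation p = 0.312), and 3 pairs had an unadjusted exact p under 0.05. With 6 libraries the smallest exact permutation p for r is 0.00139, so a pair alone could not have passed this adjustment, however strong. The values below are therefore descriptions, and all pairs share the same 6 libraries and scaling.

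Fosl2, Atf3 and Egr2 formed the most alike group. For Fosl2 with Atf3, Pearson's r was 0.92 (exact permutation p = 0.0139) and Spearman's rho 0.77 (exact p = 0.103), and r was 0.85 without the 2 libraries farthest from the Fosl2 median. For Fosl2 with Egr2, r was 0.91 (exact p = 0.0111) and rho 0.94 (exact p = 0.0167), and r was 0.87 without those 2 libraries. Both relations were as high among deviations from the group means, at 0.91 and 0.93. All 3 genes were lowest in knockout replicate 1 and highest in wild-type replicate 1. For Atf3 with Egr2, r was 0.84 (exact p = 0.0389, rho 0.83 with exact p = 0.0583). It was 0.38 without the libraries farthest from the Atf3 median, which are these same 2, so that relation rests on them.

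Fos and Egr1 moved together more by rank than in proportion. Pearson's r was 0.80 (exact permutation p = 0.0569) and Spearman's rho 0.94 (exact p = 0.0167), and r was 0.94 without the 2 libraries farthest from the Fos median. Among deviations from the group means r was 0.31, so most of the pooled relation is the difference between the groups. Fos and Jun went opposite ways, with r of −0.83 (exact p = 0.0583) and rho of −0.77 (exact p = 0.103). That r was −0.81 without the 2 libraries farthest from the Fos median and −0.55 without the 2 farthest from the Jun median. Among deviations from the group means it was −0.69. Junb and Atf3 were likewise opposed, with r of −0.81 (exact p = 0.0542), rho of −0.83 (exact p = 0.0583) and −0.92 without the 2 libraries farthest from the Junb median.

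**Figure D4:**
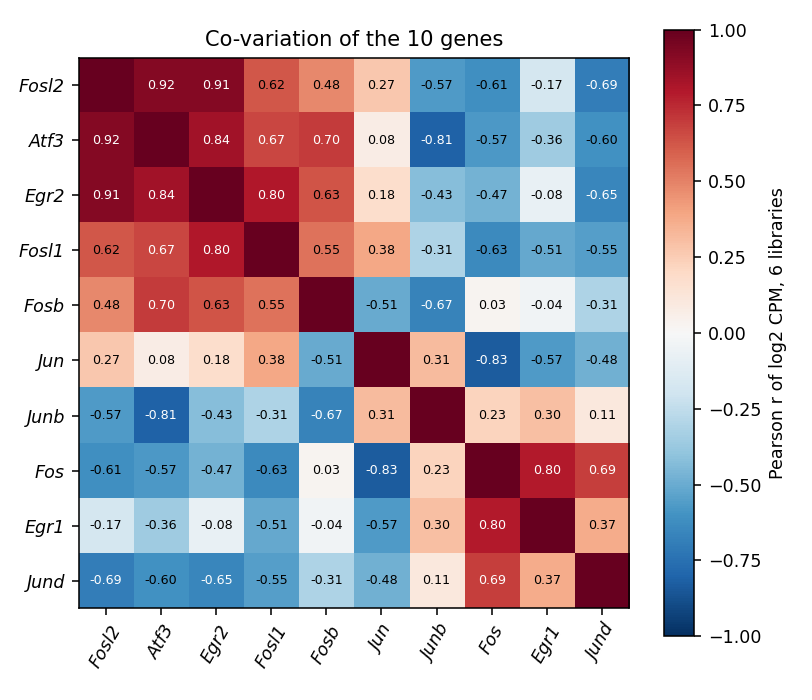
Pearson r of log2 CPM over the 6 libraries for every pair of the 10 genes (red positive, blue negative, values printed in the cells). Fosl2, Atf3 and Egr2 stand together with r from 0.84 to 0.92, Fos and Egr1 reach 0.80, and Fos with Jun is at −0.83.

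Single libraries carry much of this pattern. Knockout replicate 1 held the lowest value of 5 members, Fosb, Fosl1, Fosl2, Atf3 and Egr2, and the highest value of 4 others, Fos, Junb, Jund and Egr1. Wild-type replicate 1 was highest for Fosl2, Jun, Atf3 and Egr2 and lowest for Fos. The member with the widest range over all libraries was Egr2, at 3.16-fold, and the narrowest was Fosl2, at 1.31-fold.

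Many genes outside the set followed Fos closely. Among 10824 genes of mean log2 CPM at least 3, the 5 with the highest Pearson r with Fos over the 6 libraries were Prss32, Ethe1, Klf4, Atoh1 and Cracr2a, with r from 0.996 to 0.998. For scale, 5.70% of those genes had an r over 0.9 with Fos, the largest such share of the 10 members. The first principal component of all tested genes ordered the libraries as Fos did, in reverse, with only knockout replicates 1 and 3 exchanged. Klf4, a zinc finger factor of goblet cell differentiation and itself an immediate early gene, measured 316, 226 and 281 CPM in knockout replicates 1 to 3 and 75.7, 158 and 132 CPM in wild-type replicates 1 to 3. Atoh1, the factor that commits progenitors to secretory fates, measured 52.5, 27.9 and 37.9 CPM against 7.61, 20.2 and 17.3 CPM. Both follow the Fos order of libraries, with knockout replicate 1 first and wild-type replicate 1 last, over a wider range than Fos. Their log2 fold changes were 1.17 and 1.39, and neither passed (edgeR adjusted p = 0.334 and 0.345).

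Fewer genes followed Fosl1. The 5 most like it were Rsad2, Oas3, Ifi44 and Oas2, known as interferon-stimulated genes, and the Wnt pathway modulator gene Dkk2, with r from 0.97 to 0.98 over the 6 libraries. As a measure of scale, 0.693% of the 10824 genes had an r over 0.9 with Fosl1. Rsad2, which encodes the antiviral protein viperin, measured 5.40, 36.7 and 15.0 CPM in knockout replicates 1 to 3 and 49.9, 18.9 and 21.7 CPM in wild-type replicates 1 to 3. Oas3, a sensor of double-stranded RNA, measured 5.8, 49.3 and 12.8 CPM against 43.4, 13.9 and 18.8 CPM. Like Fosl1, both were high in knockout replicate 2 and wild-type replicate 1 and lowest in knockout replicate 1, so this pattern cuts across the genotypes.

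**Figure D5:**
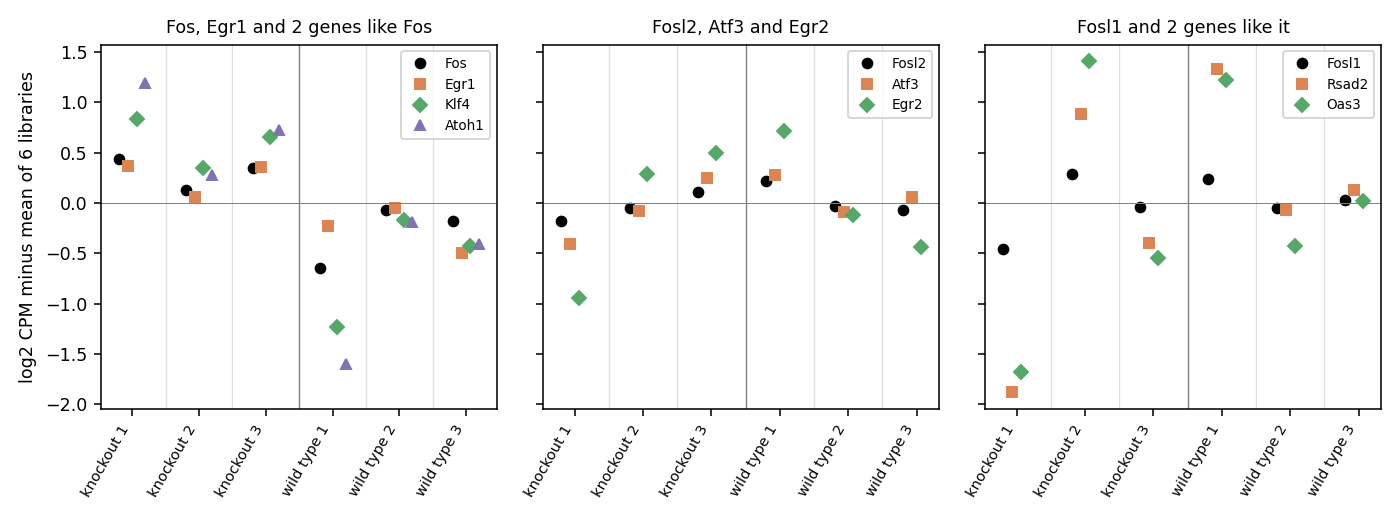
Log2 CPM of each gene minus its mean over the 6 libraries, 1 column per library, for Fos and Egr1 with Klf4 and Atoh1 (left), Fosl2, Atf3 and Egr2 (middle), and Fosl1 with Rsad2 and Oas3 (right). On the left all knockout points lie above all wild-type points, and in the other panels the groups overlap.

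Other immediate early genes leaned toward higher values in the knockout. Of 34 tested genes edgeR called 0 in either direction, while DESeq2 called Klf4 and Sgk1 as higher and Socs3 as lower. Over all tested genes DESeq2 called 1.51% as higher and 0.559% as lower. In edgeR 25 had a positive log2 fold change and the median was 0.22, where the median of all 16281 tested genes was −0.01. Leaving out knockout replicate 3 gave a list median of 0.11, and leaving out knockout replicate 1 gave 0.34. In 10 of the 34 every knockout library lay above every wild-type library, against 9.43% of all genes, and in 1 of them, Socs3, every knockout library lay below, against 8.47%. The kinase gene Sgk1, a target of glucocorticoid and growth factor signals, measured 137, 94.7 and 137 CPM in knockout replicates 1 to 3 and 37.9, 59.3 and 52.8 CPM in wild-type replicates 1 to 3. Its log2 fold change was 1.3 (SE 0.21, edgeR adjusted p = 0.322). Klf4 had 1.17, and the flow-responsive factor gene Klf2 had 0.57, at 10.3 ± 1.003 CPM against 6.97 ± 0.641 CPM (SD, n = 3 each). Socs3, a feedback inhibitor of STAT3 signalling, had −0.61, with 63.7 ± 1.63 CPM against 97.3 ± 21.3 CPM (SD, n = 3 each).

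The signalling components upstream showed no such lean. Of 35 tested genes for SRF, its cofactors and MAP kinases, 17 had a positive and 18 a negative log2 fold change, the median was −0.01, and edgeR and DESeq2 both called 0. The extremes were −0.36 and 0.34. Mapk8, which encodes the Jun kinase JNK1, had a log2 fold change of −0.26 (edgeR adjusted p = 0.511), the kinase gene Map3k1 had −0.20 and Hras had −0.25. Of 22 tested bZIP partners and EGR relatives, 11 were positive and 11 negative, and both tools called 0. In this list Maf, a bZIP factor gene, had a log2 fold change of 0.45, while the small Maf genes Maff and Mafg had −0.29 and −0.26.

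Feedback genes of the ERK pathway were split. Of 20 tested genes, edgeR called 0 and DESeq2 called Dusp4 as lower, where it called 0.559% of all tested genes as lower. Of the 20, 9 had a positive and 11 a negative log2 fold change, with a median of −0.06. That median was 0.02 without knockout replicate 3. Dusp4, a nuclear phosphatase for MAP kinases, measured 44.9, 55.5 and 46.7 CPM in knockout replicates 1 to 3 and 108.5, 73.0 and 71.2 CPM in wild-type replicates 1 to 3, without overlap. Its log2 fold change was −0.78 (SE 0.19, edgeR adjusted p = 0.334). Etv5, an ETS factor gene induced by ERK signalling, had −0.78 and Phlda1 had −0.17, while the receptor kinase antagonist gene Spry2 had 0.49. The summed CPM of this list ran against Fos, with r of −0.94 (exact permutation p = 0.00417) and rho of −0.94 (exact p = 0.0167). That r was −0.69 without the 2 farthest libraries and −0.90 among deviations from the group means. The adjusted p was 0.208 over the 150 relations between members and lists that were computed, so the relation did not pass. With 6 libraries the smallest exact permutation p for r is 0.00139, so a relation alone could not have passed this adjustment at any strength. That limit holds for every such relation given below.

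Genes known as AP-1 targets in tumours mostly lay on the other side of 0 from Fos. Of 33 tested genes, edgeR called 0 and DESeq2 called Mmp7 as lower, where it called 0.559% of all tested genes as lower. Of the 33, 25 had a negative and 8 a positive log2 fold change, with a median of −0.21. In 2 of them, Mmp7 and Krt7, every knockout library lay below every wild-type library, against 8.47% of all genes. The matrix protease gene Mmp7 measured 296, 213 and 199 CPM in knockout replicates 1 to 3 and 577, 441 and 399 CPM in wild-type replicates 1 to 3. Its log2 fold change was −1.001 (SE 0.19, edgeR adjusted p = 0.322). The keratin gene Krt7 had −0.33, the growth factor gene Tgfa had −0.25 and the cyclin gene Ccnd1 had −0.23. Leaving out knockout replicate 1 gave a list median of −0.04, leaving out wild-type replicate 1 gave −0.09, and leaving out knockout replicate 3 gave −0.35. Across the 6 libraries the log2 of the list's summed CPM followed Fosl2, with r of 0.85 (exact permutation p = 0.0292) and rho of 1 (exact p = 0.00278). That r was 0.74 without the 2 farthest libraries, and the adjusted p over the 150 relations was 0.331. With the sum, r was −0.50 for Fos, −0.89 for Jund and 0.83 for Atf3 and Egr2. It lay between −0.44 and 0.64 for the other members, and none passed. Many of the listed genes are also driven by factors other than AP-1.

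Heat shock and handling stress genes, which share inducers with Fos and Egr1, had negative log2 fold changes in 13 of 14 tested genes, with a median of −0.27 and 0 called by edgeR or DESeq2. Their summed level overlapped between the groups, at 5751 to 7518 CPM for the knockout against 6679 to 9213 CPM for the wild type. The chaperone genes Hspe1, Dnaja1, Hsp90aa1 and Hspd1 had −0.27, −0.30, −0.32 and −0.26. The list median was −0.09 without wild-type replicate 3, which held the highest sum.

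The summed level of smooth muscle markers followed Fos from library to library. Of 12 smooth muscle markers, such as Myh11, Acta2 and Des, 11 had a positive log2 fold change and none was at 0 reads in all libraries. Their summed level was 1667, 1031 and 1180 CPM in knockout replicates 1 to 3 and 385, 934 and 840 CPM in wild-type replicates 1 to 3, without overlap. Across the 6 libraries the log2 of this sum followed Fos with r of 0.97 (exact permutation p = 0.00139, the smallest that 6 libraries can give for r) and rho of 1 (exact p = 0.00278). It was 0.99 without the 2 farthest libraries and 0.97 among deviations from the group means, and the adjusted p over the 150 relations was 0.208. Colon epithelium markers followed Fos as well, with r of 0.92 (exact p = 0.00972, rho 0.83 with exact p = 0.0583, adjusted p = 0.234), and 0.85 without the 2 farthest libraries. Jun ran against the same epithelial sum, with r of −0.88 (exact p = 0.00972, rho −0.94 with exact p = 0.0167, adjusted p = 0.234) and −0.62 without those 2 libraries. Egr1 followed the smooth muscle sum less closely, with r of 0.67 (exact p = 0.138) and rho of 0.94 (exact p = 0.0167), with 0.97 without the 2 farthest libraries and 0.19 among deviations from the group means. Other sums gave lower or opposite values with Fos, none past an adjusted p of 0.05. Pearson's r was 0.77 for plasma and B cells, 0.76 for surface colonocytes, 0.67 for macrophages, 0.54 for endothelium, 0.43 for fibroblasts, −0.16 for neutrophils and −0.83 for enteric neurons and glia. Among deviations from the group means it was 0.30, 0.55, −0.03, 0.07, −0.51, −0.24 and −0.33 in the same order. The part of tissue makeup in the Fos and Egr1 values was not tested.

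Between the groups, several of these lists had mostly positive log2 fold changes, where 47.9% of all tested genes were positive. Fibroblast markers had a positive log2 fold change in 11 of 12 genes, with sums of 2053 to 2791 CPM for the knockout against 1392 to 2028 CPM for the wild type, and 9 of 10 macrophage markers did so, with sums of 667 to 885 CPM against 565 to 638 CPM. No marker of either list was at 0 reads in all libraries, and neither sum overlapped between the groups. Plasma and B cell sums were 1500 to 3766 CPM against 797 to 1238 CPM, without overlap, with 9 of 10 genes positive. Surface colonocyte sums overlapped, at 1799 to 2363 CPM against 1088 to 2035 CPM with 10 of 12 genes positive, as did endothelial sums, at 267 to 366 CPM against 247 to 305 CPM with 9 of 10 positive. The surface colonocyte sum is carried by Emp1, Krt20 and Clca4a, of which Krt20 and Clca4a had negative log2 fold changes, at −0.05 and −0.07. The list median was 0.74. In 6 of the 12 genes every knockout library lay above every wild-type library, against 9.43% of all tested genes. Among those 6, named after their values were seen, Aqp8 had a log2 fold change of 3.50, Car4 had 2.48 and Slc26a3 had 2.34 (edgeR adjusted p = 0.181, 0.334 and 0.345). Jun ran against the surface colonocyte sum, with r of −0.92 (exact permutation p = 0.00972, rho −0.83 with exact p = 0.0583, adjusted p = 0.234) and −0.86 without the 2 farthest libraries. This was not particular to colonocytes. For Jun, r was −0.91 with plasma and B cells, −0.81 with endothelium, −0.76 with smooth muscle, −0.67 with macrophages and −0.34 with fibroblasts. It was 0.00 with neutrophils and 0.49 with enteric neurons and glia, and none passed an adjusted p of 0.05. Neutrophil markers overlapped, at 142 to 313 CPM against 123 to 298 CPM, with 3 of 10 genes positive. The sum of enteric neuron and glia markers was lower in every knockout library, at 46.0 to 53.5 CPM against 63.7 to 80.7 CPM, although 8 of its 10 genes had positive log2 fold changes, because the sum is mostly Ret (31.4 ± 7.51 against 57.0 ± 7.48 CPM, SD, n = 3 each). Egr1 ran against that sum, with r of −0.96 (exact permutation p = 0.00417) and rho of −1 (exact p = 0.00278), −0.89 without the 2 farthest libraries and an adjusted p of 0.208. The part of these cells in the members' values was not tested.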

How the data were processed

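Whole-number read counts per gene symbol, 1 table per sample, are as deposited by the authors. The build mm10 and the tools TopHat2, edgeR and limma are listed, per the submitters' processing notes, without roles. Which counter and annotation were used, and whether strand was, is not given in the sources used here. Every row carries a gene symbol. Groups and replicate numbers came from the sample titles. Depth was 17937821 to 29742757 counts per library, lower in all knockout libraries.

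Counts of all 6 libraries were fitted in R 4.3.3 with edgeR 4.0.16 (quasi-likelihood test, TMM scaling, filterByExpr by group, group as the only term), two-sided, with Benjamini-Hochberg adjustment over 16281 genes. The same edgeR fit is behind each adjusted p of a gene, and its standard error is the log2 fold change divided by the square root of F. CPM are relative to TMM-scaled library size, and log2 CPM used a prior count of 2. Correlations used exact permutation over the 720 orders of 6 libraries (scipy 1.17.1). On simulated counts with 50 genes changed at each size, edgeR recovered 64% at a log2 fold change of 1 and 90% at 2 among 16054 genes, and 22 of 188 calls were false. No size below 1 was simulated, and the largest member change was 0.59, so recovery at the members' sizes is not known.

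All members are named, then up to 4 genes per list with the smallest unadjusted p, and the 5 genes most like Fos and Fosl1 at a mean log2 CPM of at least 3. Some genes this rule would name are not reported here. Predicted, small RNA, antigen receptor and sex-linked genes were left out of the search for like genes. The members and lists were chosen with earlier results of these data known. Same-numbered samples did not deviate together (r of −0.15, −0.17 and −0.07 for numbers 1 to 3), so they were not treated as pairs. These are the numbers of the sample titles; the deposited tables carry other numbers, which were not used. Alternatives were DESeq2 1.42.0, limma-voom (limma 3.58.1), 3 scalings, 2 filters, the replicate block, other prior counts, coding length and leaving out each library.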

Additional observations from a re-analysis of the deposited data

How the results depend on the processing

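The count of members past the test was 0 under all 14 alternatives, and the count of co-varying pairs past the test was 0 with prior counts of 0.5 and 5 and with library size only. For pairs this count is a weak check, because with 6 libraries a pair alone could not pass the adjustment. DESeq2 called 2.07% of all tested genes, 1.51% as higher and 0.559% as lower. Among the lists of related genes, it called 5 genes (Klf4 and Sgk1 higher, Dusp4, Mmp7 and Socs3 lower), where edgeR called 0. The cause was not tested. DESeq2's adjusted p was 0.0618 for Fos and 0.0987 for Egr1, and over all alternatives it ran from 0.0618 to 0.719 and from 0.0987 to 0.719. Fos, Egr1, Jun and Jund kept their sign throughout. Other signs turned when 1 library was left out. The log2 fold changes ran from −0.31 to 0.062 for Fosl1, −0.021 to 0.19 for Junb, −0.33 to 0.0078 for Atf3, −0.34 to 0.34 for Egr2, −0.18 to 0.55 for Fosb and −0.16 to 0.017 for Fosl2. The difference in the share of Fos ran from 7.04 to 13.99 points over such fits. With the replicate block, 0 members and 0 list genes passed, the adjusted p was 0.602 for Fos and 0.611 for Egr1, and 1293 genes in place of 1750 had an unadjusted p under 0.05. That count was 1106 without knockout replicate 3. Egr2 and Fosb have the widest spread within groups, and differences within their intervals could not be detected.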
